A study of Mus musculus with 4 samples.

Results

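The signaling lymphocytic activation molecule (SLAM) family and its adaptors were followed by 8 genes, which were taken as the rows with the symbols Slamf1, Slamf6, Slamf7, Ly9, Cd84, Cd48, Sh2d1a and Sh2d2a. These are 8 of the 32285 genes counted. Single-cell RNA came from spleen T cells (Tc) of 4 mice, in 1 library per mouse. All recipients were BALB/c mice that received lethal total body irradiation, 10000 WEHI-3B cells (a murine myelomonocytic leukemia line) and bone marrow from allogeneic C57BL/6-background donors, followed on day 2 by 200000 spleen Tc of the same donor genotype; spleens were taken on day 23. In 2 libraries the donors were Havcr2fl/fl;E8icre/+, in which cre under E8i, a regulatory element active in CD8+ cells, is meant to delete Havcr2 (TIM-3), and in 2 the donors were Havcr2fl/fl without cre, so the floxed allele was carried by both groups. Tc were enriched with a pan-Tc kit and stained with an oligo-tagged antibody to H-2Kb, which donor cells carry. The labels call the cells Tc, yet 4750 of the 11513 cells used fell in clusters where 6.28% to 19.5% of cells gave a UMI of any CD3 chain gene (a unique molecular identifier, counting a captured RNA molecule once), against at least 99.2% in the Tc clusters.

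SLAM family receptors are small Ig superfamily proteins of hematopoietic cells. Slamf1 (CD150), Slamf6 (Ly108), Slamf7 (CRACC), Ly9 (CD229) and Cd84 encode self-ligands that bind the same protein on a neighboring cell, whereas Cd48 encodes a GPI-anchored protein that serves as ligand for CD244 and CD2. Cytoplasmic tyrosine motifs of Slamf1, Slamf6, Ly9 and Cd84 proteins recruit SAP, the product of Sh2d1a, which links receptors of the family to the kinase Fyn and is needed for stable contacts between Tc and B cells. Sh2d2a encodes TSAd, an SH2 adaptor of activated Tc that binds Lck and is grouped here with SAP by its domain, not as a SAP family protein. In exhausted CD8+ Tc, Slamf6 is widely used to mark the precursor cells that retain the transcription factor TCF-1, the product of Tcf7.

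On GRCm38 with GENCODE M21, the 6 receptor genes were neighbors on chromosome 1. They lay in the order Ly9 (171588624 to 171607410, minus strand), Slamf7 (171632403 to 171653035, minus strand), Cd48 (171682009 to 171705258, plus strand), Slamf1 (171767127 to 171801184, plus strand), Cd84 (171839697 to 171890718, plus strand) and Slamf6 (171917515 to 171953170, plus strand), a span of 365 kb. Sh2d1a lay on chromosome X from 42502453 to 42529330 and Sh2d2a on chromosome 3 from 87846755 to 87855722, both on the plus strand. Only Slamf7 and Cd48 overlapped other annotated genes on their own strand (Mir7683 and Gm37010), and part of their reads could belong to those.

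Slamf6 and Cd84 were higher in CD8+ Tc with Tcf7 RNA than in those without. Their neighbor Cd48 did not pass that test, though some alternatives called it lower. The 250 bases before the RefSeq start of each (GRCm38.p6, plus strand) are shown for that reason, 5′ to 3′, at chr1:171917212-171917461 for Slamf6, chr1:171839447-171839696 for Cd84 and chr1:171681742-171681991 for Cd48. Capitals mark matches, on either strand, to the letters CTTTGA (TCF/LEF core), GGTGTGA (T-box), TGTGGT (Runx) or AGGAAG (Ets).
Slamf6: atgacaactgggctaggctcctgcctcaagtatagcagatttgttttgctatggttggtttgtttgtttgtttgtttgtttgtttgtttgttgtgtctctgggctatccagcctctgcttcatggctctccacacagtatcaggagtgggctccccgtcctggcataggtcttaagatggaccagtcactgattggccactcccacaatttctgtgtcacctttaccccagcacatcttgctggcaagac
Cd84: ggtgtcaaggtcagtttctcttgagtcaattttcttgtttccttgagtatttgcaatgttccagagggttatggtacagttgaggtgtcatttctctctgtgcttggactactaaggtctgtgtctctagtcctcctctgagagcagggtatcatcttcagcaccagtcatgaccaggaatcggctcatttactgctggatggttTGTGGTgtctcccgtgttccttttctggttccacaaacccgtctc
Cd48: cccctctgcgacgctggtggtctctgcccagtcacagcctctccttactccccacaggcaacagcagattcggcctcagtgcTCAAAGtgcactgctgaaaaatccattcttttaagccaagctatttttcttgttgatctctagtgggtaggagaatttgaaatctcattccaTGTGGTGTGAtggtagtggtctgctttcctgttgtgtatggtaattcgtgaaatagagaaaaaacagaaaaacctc
None of these 4 sets of letters occurred in the Slamf6 window. The Cd84 window held TGTGGT at -45, and the Cd48 window held the reverse complement of CTTTGA at -168, TGTGGT at -76 and GGTGTGA at -73, where the last 2 overlap. Among 32536 distinct windows of the same length in the RefSeq table, 13.9% held CTTTGA, 3.33% GGTGTGA, 13.96% TGTGGT and 29.6% AGGAAG. Promoter sequences were found for 5 of the 8 genes, and in the other 2 windows, those of Slamf1 and Slamf7, only AGGAAG was found.

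The libraries held 1511 to 6737 barcodes and 17693991 to 55045903 gene UMIs, and 1 to 10 barcodes were shared between any pair. After filtering, the CD8+ Tc numbered 1529 and 954 in the Havcr2fl/fl;E8icre/+ replicates 1 and 2 and 487 and 1285 in the Havcr2fl/fl replicates 1 and 2, and the CD4+ Tc numbered 576, 625, 241 and 312; values of libraries are given in this order throughout. Median depth in CD8+ Tc was 4747, 6161.5, 6974 and 3024 UMIs per cell, so Havcr2fl/fl replicate 2 was the shallowest library in these cells. Havcr2 itself was at 61.3, 7.94, 54.7 and 115 CPM (UMIs scaled to a common library total of 1000000) in CD8+ Tc. The library labelled Havcr2fl/fl;E8icre/+ replicate 1 thus lay between the control libraries, against its label. Reads at the 3′ end of a transcript need not fall in the deleted part, which is not given in the sources used here, so that this check does not settle the genotype.

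Whether loss of TIM-3 in CD8+ Tc altered SLAM family expression was tested on UMIs summed per library, n = 2 against 2, with edgeR's quasi-likelihood test and Benjamini-Hochberg adjustment over all genes tested. Of the 8 genes, 0 passed an adjusted p of 0.05 in CD8+ Tc, where 0.0276% of 10871 genes were called (0.0184% higher, 0.0092% lower). In CD4+ Tc the count was 0 of 8 (0.0104% of 9642 genes called), in CD8+ Tc with a Tcf7 UMI it was 0 of 8 (0.079% of 7595, 0.0527% higher and 0.0263% lower), and for the difference of the genotype effect between the lineages it was 0 of 8 (0.0184% of 10873, 0.0092% in each direction). At an unadjusted edgeR p under 0.05 the 4 counts were 0, 0, 1 (Cd48) and 1 (Sh2d1a, log2 fold change -0.37, SE 0.17). Over all genes tested, 290, 309, 435 and 467 had such a p. DESeq2 called 0 of the 8 in each comparison, against 4, 5, 7 and 2 over all genes. The median log2 fold change of the 8 genes was -0.10 in CD8+ Tc, against -0.0031 over all genes tested. It turned to 0.11 without Havcr2fl/fl;E8icre/+ replicate 1, and was -0.19 without replicate 2 of that genotype and -0.05 with either Havcr2fl/fl library left out.

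Slamf6 stood at 72.0 and 149 TMM-scaled CPM in CD8+ Tc of the Havcr2fl/fl;E8icre/+ libraries and at 93.1 and 65.4 in those of the Havcr2fl/fl libraries. The groups overlapped, and the log2 fold change was 0.48 (SE 0.32, edgeR adjusted p = 0.999). Within CD8+ Tc with a Tcf7 UMI, Slamf6 was at 383 and 422 against 312 and 317, with no overlap and a log2 fold change of 0.36 (SE 0.21, edgeR adjusted p = 0.883). Cd48, Slamf1, Ly9, Cd84 and Sh2d2a also parted by genotype in these cells, whereas Slamf7 and Sh2d1a overlapped. Slamf1 had the largest log2 fold change of the family there, 0.84 (SE 0.40, edgeR adjusted p = 0.857). If libraries were ordered at random, 2 against 2 would part without overlap with a probability of 0.333. How many of all genes parted by genotype was not counted, here or for the genes below.

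By unadjusted p, Cd48, the ligand of CD244 and CD2, came nearest to a difference. In CD8+ Tc with a Tcf7 UMI it was at 217 and 256 TMM-scaled CPM against 383 and 372, a log2 fold change of -0.67 (SE 0.21, edgeR unadjusted p = 0.00612, adjusted p = 0.578). The groups did not overlap there, nor in all CD8+ Tc (279 and 317 against 350 and 442, log2 fold change -0.41, SE 0.21) or in CD4+ Tc (210 and 237 against 294 and 326). In CD4+ Tc E8i-cre is not meant to act, and the difference of the Cd48 effect between the lineages was 0.08 on the log2 scale (SE 0.12, edgeR adjusted p = 0.997).

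Of the others in CD8+ Tc, Ly9 had a log2 fold change of 0.39 (SE 0.18) and the SAP gene Sh2d1a one of -0.40 (SE 0.22), each without overlap of the groups. Random order would part 2 libraries from 2 with a probability of 0.333. Most of the Sh2d1a gap came from Havcr2fl/fl replicate 2, at 361 TMM-scaled CPM beside 253 in the other control and 227 and 240 in the Havcr2fl/fl;E8icre/+ libraries. Slamf1 (-0.11, SE 0.19), Slamf7 (-0.09, SE 0.25), Cd84 (0.14, SE 0.18) and Sh2d2a (-0.13, SE 0.22) had differences on the log2 scale within their SE. With 2 libraries per genotype, a p that misses the threshold does not show that the levels were alike. Without the library labelled Havcr2fl/fl;E8icre/+ replicate 1, whose Havcr2 level goes against its label, 0 of the 8 genes were called in either set of CD8+ Tc, and the log2 fold changes of all CD8+ Tc were 0.91 for Slamf6 (SE 0.29, edgeR adjusted p = 0.653), -0.33 for Cd48 and -0.36 for Sh2d1a. That genotype was then 1 library, assumed to vary as the 2 control libraries did.

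**Figure D1:**
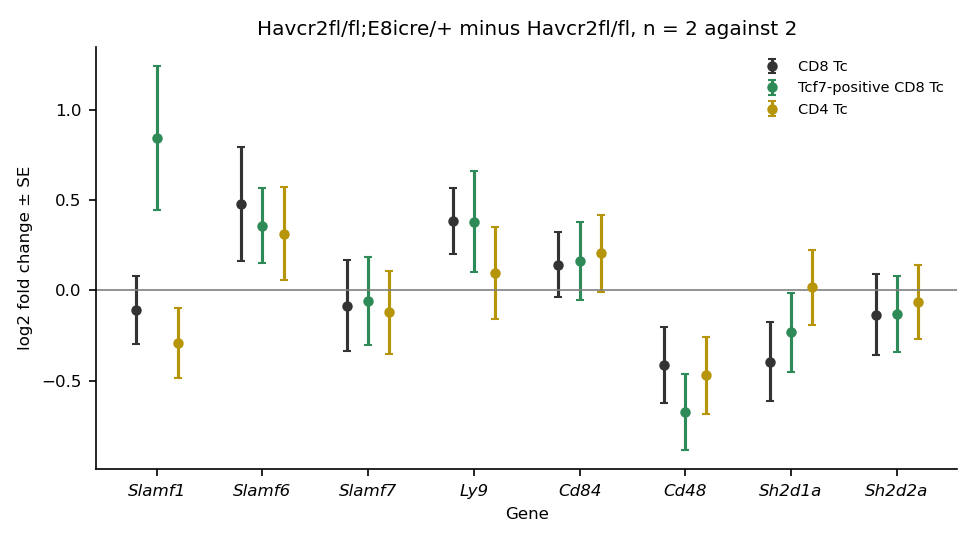
Each point is the log2 fold change, Havcr2fl/fl;E8icre/+ minus Havcr2fl/fl, of 1 gene in CD8+ Tc, CD8+ Tc with a Tcf7 UMI or CD4+ Tc, and the bars are ± SE from edgeR (n = 2 against 2). Cd48 lies below 0 in each set of cells, at -0.41, -0.67 and -0.47, and 0 of the 8 genes passed the threshold in any of them.

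CD8+ Tc and CD4+ Tc of the same mouse were compared with the mouse as a block. Of the 8 genes, 6 passed the threshold, 3 higher and 3 lower in CD8+ Tc, where 24.4% of 10308 genes were called (12.2% higher, 12.2% lower). The median log2 fold change of the 8 was -0.03, against 0.00 for all genes, since the 2 directions balanced.

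Slamf6 was at 74.4, 151, 94.8 and 66.4 TMM-scaled CPM in CD8+ Tc and at 265, 329, 290 and 188 in CD4+ Tc. It was lower in CD8+ Tc of 4 of 4 mice, without overlap, by a log2 fold change of -1.51 (SE 0.10, edgeR adjusted p = 1.11e-07). The self-ligand receptors Cd84 and Slamf1 were lower there too.
Cd84 was at 154, 168, 154 and 136 in CD8+ Tc against 242, 269, 238 and 206 in CD4+ Tc (log2 fold change -0.64, SE 0.06, edgeR adjusted p = 2.47e-06). Slamf1 was at 61.1, 71.6, 64.9 and 77.3 against 90.1, 97.3, 118 and 112 (log2 fold change -0.58, SE 0.08, edgeR adjusted p = 7.98e-05). Neither gene's CD8 and CD4 values overlapped.

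Slamf7, a receptor best known from NK cells and cytotoxic cells, ran the other way. It was at 65.1, 110.3, 99.98 and 85.2 TMM-scaled CPM in CD8+ Tc and at 29.1, 33.4, 34.9 and 33.2 in CD4+ Tc, a log2 fold change of 1.47 (SE 0.10, edgeR adjusted p = 1.73e-07). Sh2d2a was at 587, 427, 553 and 552 against 189, 189, 189 and 208 (log2 fold change 1.44, SE 0.07, edgeR adjusted p = 2.34e-08), and its CD4 values were nearly alike. Cd48 was higher in CD8+ Tc of each mouse, at 288, 321, 356 and 449 against 206, 231, 290 and 319, with a log2 fold change of 0.44 (SE 0.06, edgeR adjusted p = 9.71e-05). Its CD8 and CD4 ranges overlapped across mice and were apart only within each mouse, and the call was lost without the mouse as a block (edgeR adjusted p = 0.139).

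Ly9, at 37.8 to 54.5 TMM-scaled CPM in CD8+ Tc and 40.1 to 63.2 in CD4+ Tc, did not pass (log2 fold change -0.14, SE 0.10). Sh2d1a, at 234 to 366 and 245 to 263, did not pass either (log2 fold change 0.08, SE 0.09). Tc with neither or both of the coreceptors' RNA had Slamf6 at 235 to 288 CPM and Sh2d2a at 207 to 314 CPM. On the same scale CD4+ Tc had Slamf6 at 186 to 332 CPM and Sh2d2a at 189 to 206 CPM.

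**Figure D2:**
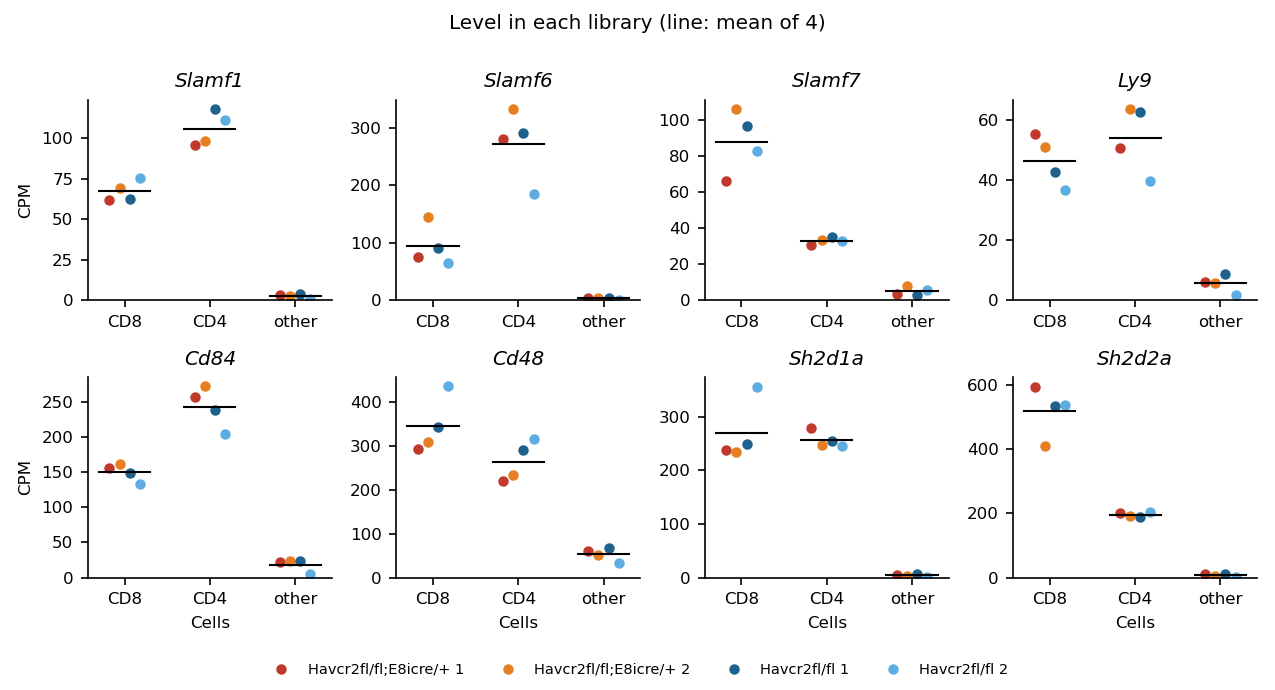
Each panel shows the CPM of 1 gene in all CD8+ Tc, all CD4+ Tc and all cells outside the Tc clusters, with 1 point per library and the mean as a line. Slamf6 has means of 94.2, 272 and 3.45 CPM in these cells, and Sh2d2a 519, 197 and 7.51.

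Among 21 other genes of the pathway (relatives, adaptors and partners of the family), 17 were tested between the lineages, and 3 were higher and 8 lower in CD8+ Tc. Cd244a, the receptor for CD48, had the log2 fold change 3.65 (SE 0.20, edgeR adjusted p = 3.58e-08), and was at 86.5 CPM ± 26.6 (SD, n = 4) in CD8+ Tc and 7.24 ± 5.51 in CD4+ Tc. Fyn, the kinase downstream of SAP, was higher by 0.35 (SE 0.07) on the log2 scale. Cd2, the other receptor for CD48, was lower by a log2 fold change of -0.39 (SE 0.06), as were Prkcq, Nfkb1, Bcl10, Ptpn11, Ptpn6, Lcp2 and Cd2ap. The EAT-2 gene Sh2d1b1 gave 7 UMIs in all CD8+ Tc and 0 in CD4+ Tc, and Sh2d1b2 gave 0 in either. Median log2 fold changes were -0.15 for the list and 0.00 for all genes. In the 4 comparisons of genotype, edgeR called 0 of the 17, and 0, 0, 0 and 1 had an unadjusted p under 0.05. The counts over all genes are given above.

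How the family followed the Tcf7 axis was tested by splitting each mouse's CD8+ Tc into 203, 238, 75 and 107 cells with a Tcf7 UMI and 1326, 716, 412 and 1178 without, since this gate uses none of the 8 genes. Of the 8, 5 passed, 3 higher and 2 lower in Tcf7-positive cells, where 14.9% of 9650 genes were called (7.78% higher, 7.16% lower). The median log2 fold change of the 8 was -0.07, against -0.00085 for all genes. Cells without a Tcf7 UMI include cells whose Tcf7 RNA was missed.

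Slamf6 was at 385, 419, 313 and 317 TMM-scaled CPM in Tcf7-positive CD8+ Tc and at 28.9, 50.3, 56.4 and 40.7 in Tcf7-negative CD8+ Tc. The ranges did not overlap, with a log2 fold change of 3.09 (SE 0.14, edgeR adjusted p = 2.50e-11). Cd84 rose with it to a smaller extent, from 140.5, 154, 144 and 129 to 212, 193, 191 and 169, without overlap (log2 fold change 0.43, SE 0.09, edgeR adjusted p = 0.00211). Ly9 was higher in Tcf7-positive cells of 4 of 4 mice (log2 fold change 0.46, SE 0.13, edgeR adjusted p = 0.0159), at 66.9, 67.6, 62.5 and 38.7 against 50.8, 46.2, 40.1 and 36.4. The Ly9 call did not hold without either Havcr2fl/fl;E8icre/+ library, at adjusted p of 0.0770 and 0.121, nor with DESeq2 (adjusted p = 0.155), without the mouse as a block (0.0999) or with Tc taken by a Cd3 UMI (0.0916).

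Slamf1 moved opposite to Slamf6. It was at 34.8, 25.6, 14.3 and 19.3 TMM-scaled CPM in Tcf7-positive and 62.5, 86.0, 71.8 and 80.1 in Tcf7-negative CD8+ Tc (log2 fold change -1.56, SE 0.18, edgeR adjusted p = 3.54e-06). Sh2d2a was at 230.3, 215, 238 and 252 against 615, 490.1, 593 and 561 (log2 fold change -1.27, SE 0.08, edgeR adjusted p = 4.25e-09). Neither gene overlapped between the gates. Slamf7 (-0.23, SE 0.16), Cd48 (-0.23, SE 0.10) and Sh2d1a (0.09, SE 0.09) did not pass, on the log2 scale, and Cd48 was lower in 3 of 4 mice. Cd48 was called lower after thinning to 2000 UMIs, without the filter on low counts and without Havcr2fl/fl replicate 1.

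In CD4+ Tc the same gate (174, 265, 91 and 91 cells with a Tcf7 UMI) gave 4 calls among the 8 genes, 1 higher and 3 lower, where 5.82% of 8020 genes were called (2.78% higher, 3.04% lower). The median of the 8 was -0.22 on the log2 scale, against 0.02 for all genes. Slamf6 was at 428, 603, 533 and 362 TMM-scaled CPM with Tcf7 RNA and 181, 146, 158 and 121 without (log2 fold change 1.66, SE 0.13, edgeR adjusted p = 4.05e-06). Slamf1 was lower, at 46.4, 49.98, 79.9 and 44.0 against 120.0, 136, 144 and 145 (log2 fold change -1.31, SE 0.15, edgeR adjusted p = 7.46e-05). Both parted the gates in every mouse.
Sh2d2a was at 120.0, 123, 134 and 108 against 238, 246, 227 and 258 (log2 fold change -0.99, SE 0.11, edgeR adjusted p = 8.69e-05). Slamf7 was at 10.9, 15.8, 14.9 and 10.2 against 41.1, 47.5, 47.9 and 44.2 (log2 fold change -1.74, SE 0.21, edgeR adjusted p = 1.21e-04).

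The difference of the Tcf7 contrast between the lineages was tested as an interaction over 16 sums, a comparison chosen after the separate results were seen. Of the 8 genes, 2 passed, both with a more positive Tcf7 contrast (not a higher level) in CD8+ Tc, where 1.1% of 9194 genes were called (1.04% higher, 0.0544% lower). The Slamf6 contrast was larger in CD8+ Tc by 1.43 on the log2 scale (SE 0.22, edgeR adjusted p = 0.00123). Tcf7-negative CD4+ Tc held Slamf6 at 121 to 181 TMM-scaled CPM, above the 28.9 to 56.4 of Tcf7-negative CD8+ Tc, while the Tcf7-positive cells of the lineages overlapped. The Slamf7 contrast differed by 1.53 (SE 0.32, edgeR adjusted p = 0.0177). It was less negative in CD8+ Tc (log2 fold change -0.23, not called) than in CD4+ Tc, where Slamf7 was called lower with Tcf7 RNA. The call of this difference was lost at edgeR adjusted p = 0.112 without Havcr2fl/fl;E8icre/+ replicate 1 and at 0.106 without Havcr2fl/fl replicate 2.

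**Figure D3:**
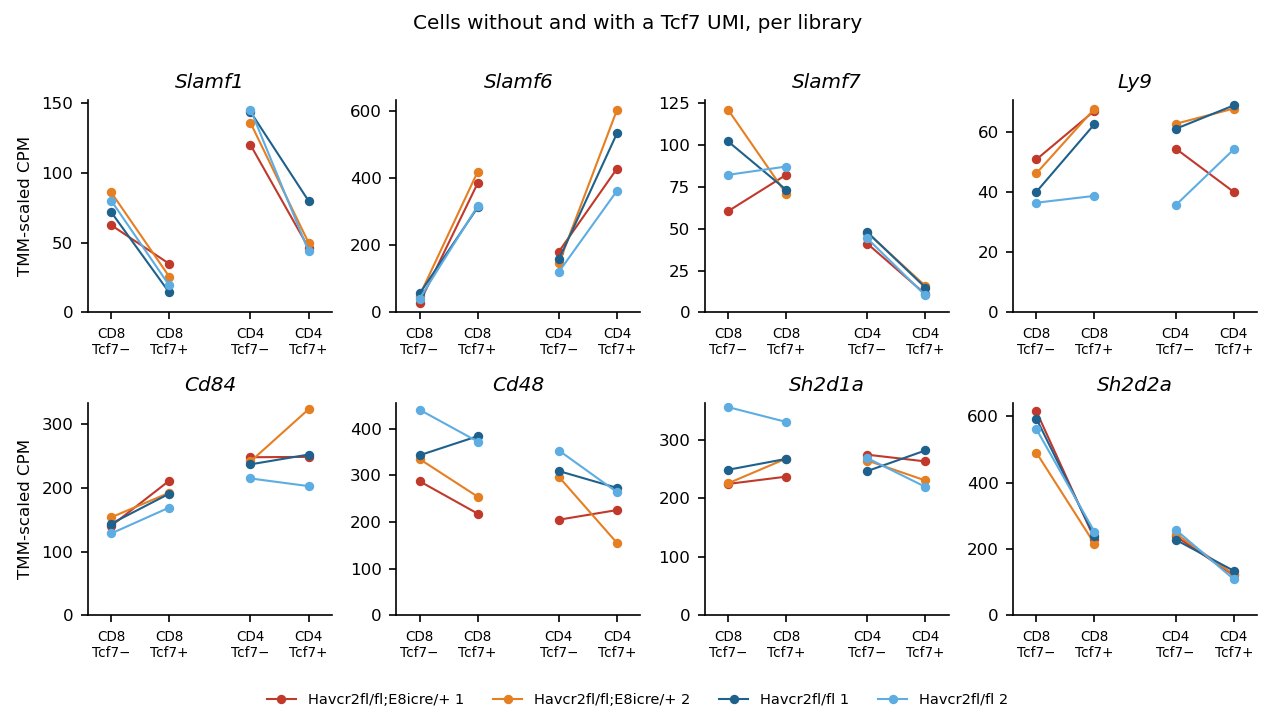
Each panel shows the TMM-scaled CPM of 1 gene in CD8+ Tc and CD4+ Tc without and with a Tcf7 UMI, and lines join the 2 values of a library. Slamf6 rises from 28.9 to 56.4 up to 313 to 419 in CD8+ Tc and Sh2d2a falls in each library of both lineages.

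Of the pathway list, 5 genes were higher and 2 lower of 17 tested in Tcf7-positive CD8+ Tc. Cd244a was the most lowered, with a log2 fold change of -3.14 (SE 0.17, edgeR adjusted p = 1.88e-10). Ptpn6 and Ptpn11, phosphatases (SHP-1 and SHP-2) that bind the same receptor motifs as SAP, were higher by 1.03 (SE 0.13) and 0.33 (SE 0.09) on the log2 scale. Cd2ap, an adaptor of CD2, was higher by 1.75 (SE 0.19), Prkcq by 0.68 (SE 0.11) and Nfkb1 by 0.46 (SE 0.10), and Pstpip1 was lower by a log2 fold change of -0.35 (SE 0.11). In CD4+ Tc, Prkcq and Cd2ap were called of 16 tested, both higher, and in the interaction edgeR called 0 of 17, with 3 at an unadjusted p under 0.05. Over all genes in the interaction, 961 of 9194 had such a p. The medians over the list were 0.08 in CD8+ Tc and -0.01 in CD4+ Tc, against -0.00085 and 0.02 over all genes.

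By Pdcd1, the gene of PD-1, 5 of the 8 genes passed in CD8+ Tc, 1 higher and 4 lower in the 1078, 681, 377 and 747 Pdcd1-positive cells, where 11.4% of 9571 genes were called (5.1% higher, 6.31% lower). Sh2d2a was higher, at 616, 472, 602 and 611 TMM-scaled CPM against 391.9, 269, 264 and 417, without overlap (log2 fold change 0.78, SE 0.08, edgeR adjusted p = 1.96e-08). Slamf7 (-0.58, SE 0.09), Slamf6 (-0.53, SE 0.12), Ly9 (-0.44, SE 0.11) and Cd48 (-0.28, SE 0.07) were lower on the log2 scale, with overlapping ranges for each. Slamf6 was higher in Pdcd1-positive cells of 1 mouse, while Slamf7, Ly9 and Cd48 were lower in each mouse. Pdcd1-positive cells held 1.19 to 1.45 times the UMIs per cell of Pdcd1-negative ones. With cells thinned to 2000 UMIs before gating, Sh2d2a alone was called, at a log2 fold change of 0.35 (SE 0.06), and the differences became -0.13 for Slamf7, -0.27 for Slamf6, -0.21 for Ly9 and -0.20 for Cd48 on the log2 scale. Without the mouse as a block 0 of the 8 were called, and without Havcr2fl/fl;E8icre/+ replicate 1 the count was 3, with Slamf6 and Ly9 lost. The median of the 8 was -0.22 on the log2 scale, against 0.0095 for all genes.

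By Cx3cr1, a chemokine receptor of effector Tc, 2 of the 8 passed in the 182, 137, 113 and 143 positive CD8+ Tc, 1 higher and 1 lower, where 10.4% of 9271 genes were called (6.58% higher, 3.85% lower). Cd48 was higher in each mouse, at 419, 443, 435 and 524 TMM-scaled CPM against 262, 291, 323 and 426 (log2 fold change 0.51, SE 0.07, edgeR adjusted p = 8.88e-07). Sh2d2a was lower in each mouse, at 504, 305, 404 and 460.1 against 585, 444, 598 and 555 (log2 fold change -0.39, SE 0.06, edgeR adjusted p = 5.45e-05). Both ranges overlapped across mice, and without the mouse as a block 0 of the 8 were called. Cd244a was higher in Pdcd1-positive cells by 0.89 (SE 0.12) and had a log2 fold change of -0.93 (SE 0.11) in Cx3cr1-positive ones. Of the 17 pathway genes tested, Ptpn11 rose and Prkcq fell by the Pdcd1 gate, and Prkcq rose and Nfkb1 fell by the Cx3cr1 gate. Cx3cr1-positive cells held 1.09 to 1.34 times the UMIs per cell of Cx3cr1-negative ones. Pathway calls, here and in the other comparisons, were not rechecked under the alternatives, in which only the 8 genes were followed by name.

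Regulatory Tc were approached by Foxp3, their defining transcription factor. Only 33, 57, 6 and 17 CD4+ Tc had a Foxp3 UMI, and 5 of the 8 genes passed, 1 higher and 4 lower, where 8.16% of 6982 genes were called (3.74% higher, 4.43% lower). The median of the 8 was -0.62 on the log2 scale, against -0.05 for all genes. Slamf6 was at 93.7, 45.7, 58.9 and 86.2 TMM-scaled CPM in Foxp3-positive cells and 300.5, 395, 324 and 212 in the others (log2 fold change -2.34, SE 0.25, edgeR adjusted p = 1.64e-10). Sh2d1a was at 120.5, 131, 39.2 and 138 against 297, 283, 285 and 279 (log2 fold change -1.29, SE 0.21, edgeR adjusted p = 6.08e-06). Both were apart from the Foxp3-negative cells in every library.
Cd84 was lower as well, by a log2 fold change of -1.05 (SE 0.20, edgeR adjusted p = 1.33e-04), and so was Sh2d2a, with -0.83 (SE 0.21, edgeR adjusted p = 0.00478). Slamf1 was higher, at 187, 146, 196 and 155 against 93.5, 103, 125 and 120 (log2 fold change 0.65, SE 0.21, edgeR adjusted p = 0.0385), without overlap, but this call was lost without any 1 of the 4 libraries, at adjusted p of 0.0510 to 0.378. With Havcr2fl/fl;E8icre/+ replicate 1 or 2 left out, the Sh2d2a call was also lost, and 3 of the 8 genes were called. Of 16 pathway genes tested 3 were lower, Fyn and Ptpn11 among them, and the median of the list was -0.41.

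Clusters of cells placed these levels on a finer map. CD8+ Tc formed 10 clusters and CD4+ Tc 6, with the 8 genes left out of the variable genes; since clusters use the cells' other genes, their levels are a description without a test. A cluster was named only when marker genes fit it, and the others are described by their leading genes. Means are over libraries with at least 10 cells in the cluster.

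Slamf6 was highest, by mean CPM, in the precursor exhausted-like cluster of CD8+ Tc (led by Xcl1, Id3 and Tcf7), with 477, 590.3, 393 and 429 CPM. Slamf6 itself was among the 10 leading genes of this cluster. A naive or memory-like cluster (Klf2, S1pr1, Il7r) followed at 172 CPM ± 43.8 (SD, n = 4), with no overlap. Interferon-stimulated-like cells came next at 75.1 ± 65.4 (SD, n = 3), from 13 UMIs over the 4 libraries, and overlapped the naive or memory-like range. At the low end were cluster 5 (Ccl5, Ctla2a, Rgs1), at 20.3 CPM, and the short-term effector-like cluster (S1pr5, Zeb2, Cx3cr1, Klrg1), with 1, 0, 0 and 2 UMIs.
At 2000 UMIs per cell, 53.0% of precursor exhausted-like CD8+ Tc had a Slamf6 UMI, against 1.03% of late erythroid-like cells, which should lack it; before thinning these cells had medians of 4993 and 4313 UMIs.
In CD4+ Tc, Slamf6 was highest in the precursor exhausted-like cluster, with 988, 766, 820 and 604 CPM, above the 312 ± 93.3 (SD, n = 4) of cluster 0 (Igfbp7, Ramp3, Ebi3). In CD4+ Tc this name rests on Tcf7, Id3, Il7r, Lef1 and Cxcr5, and Il7r and Lef1 are also on the naive or memory list. It does not show that these cells were exhausted. The study described its CD4+ cluster with high Tcf7 and Slamf6 as precursor effector memory Th1 cells. The regulatory-like cluster held 5, 5, 3 and 0 Slamf6 UMIs in 36, 53, 5 and 16 cells.

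Cd84 shared the high level in precursor exhausted-like cells but was spread more evenly. It was at 266, 244, 223 and 184 CPM in that CD8 cluster, at 103 in cycling-like CD8+ Tc, and at 333 and 320.5 in CD4 cluster 0 and the CD4 precursor exhausted-like cluster. Ly9 was between 36.2 and 81.9 CPM in every CD8 cluster with 4 libraries, and its highest mean, in short-term effector-like cells, came from 10, 3, 10 and 1 UMIs.

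Cd48 had its extremes at the other ends in CD8+ Tc. It was highest in short-term effector-like cells, at 562, 599, 607 and 795 CPM, and lowest in the precursor exhausted-like cluster, at 148, 180, 238 and 253. In CD4+ Tc it went from 133 CPM ± 60.8 in precursor exhausted-like cells up to 411 ± 90.4 in cluster 3 (Ifitm1, Ifitm2, Ccr2). In the precursor exhausted-like clusters of both lineages the Havcr2fl/fl;E8icre/+ libraries had the lower Cd48 values, 78.4 and 86.4 against 164 and 204 CPM in CD4+ Tc. This was not tested, and random order would part 2 libraries from 2 with a probability of 0.333. The mice are those of the genotype comparisons above, so it is no separate evidence, and how many of all genes parted was not counted.

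Slamf7 was highest in short-term effector-like CD8+ Tc (184, 240, 148 and 194 CPM) and resident-like CD8+ Tc (151, 163, 174 and 118 CPM, led by Itga1 and Cxcr6), whose ranges overlapped. The resident-like name rests on 3 of 5 markers, Itga1, Cxcr6 and Rgs1, while Itgae and Cd69 were not raised. In CD4+ Tc it was highest in cluster 1, which was led by Ccl4, Ccl3, Gzma, Eomes and Gzmk, at 66.8, 83.2, 93.3 and 63.6 CPM. It gave 2, 8, 2 and 0 UMIs in CD4 precursor exhausted-like cells. Slamf1 was highest in resident-like cells among the CD8 clusters with 4 libraries, at 106 CPM ± 11.6 (SD), and interferon-stimulated-like cells had 121 ± 44.1 (SD, n = 3). In CD4+ Tc it was at 214, 176, 253 and 215 CPM in the regulatory-like cells, of which Havcr2fl/fl replicate 1 held only 5, and at 206, 209, 160.5 and 179 in CD4 cluster 1. These ranges overlapped.

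By mean CPM, the adaptors were highest in clusters led by chemokine and granzyme genes. These clusters were left unnamed, but they also raised marker genes of terminally exhausted Tc. Of 9 such markers, 7 were raised in CD8 cluster 1 (Eomes, Nr4a2, Entpd1, Rgs16, Pdcd1, Lag3 and Cd160, not Tox or Tigit). In CD4 cluster 1, 9 of 9 were raised. Sh2d2a stood at 882, 821, 957 and 817 CPM in CD8 cluster 1 (Ccl3, Gzma, Ccl4, Nr4a2), above every other CD8 cluster in these libraries, and at 416, 492, 440.4 and 463 in CD4 cluster 1. It was lowest in short-term effector-like cells among the CD8 clusters, at 148 CPM, and in precursor exhausted-like cells among the CD4 clusters, at 102. Sh2d1a was at 319, 285, 341 and 520.2 CPM in CD8 cluster 1 and 529, 422, 444 and 382 in CD4 cluster 1. Its CD8 means ranged from 188 to 366, and cluster 1 overlapped cluster 5 (352 CPM ± 88.9, SD, n = 4). Havcr2fl/fl replicate 2 was the highest library in both, at 520.2 and 475 CPM. Cd244a also had its highest CD8 level in cluster 1, at 190.0 CPM ± 65.5, and gave 8 UMIs in all precursor exhausted-like CD8+ Tc.

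**Figure D4:**
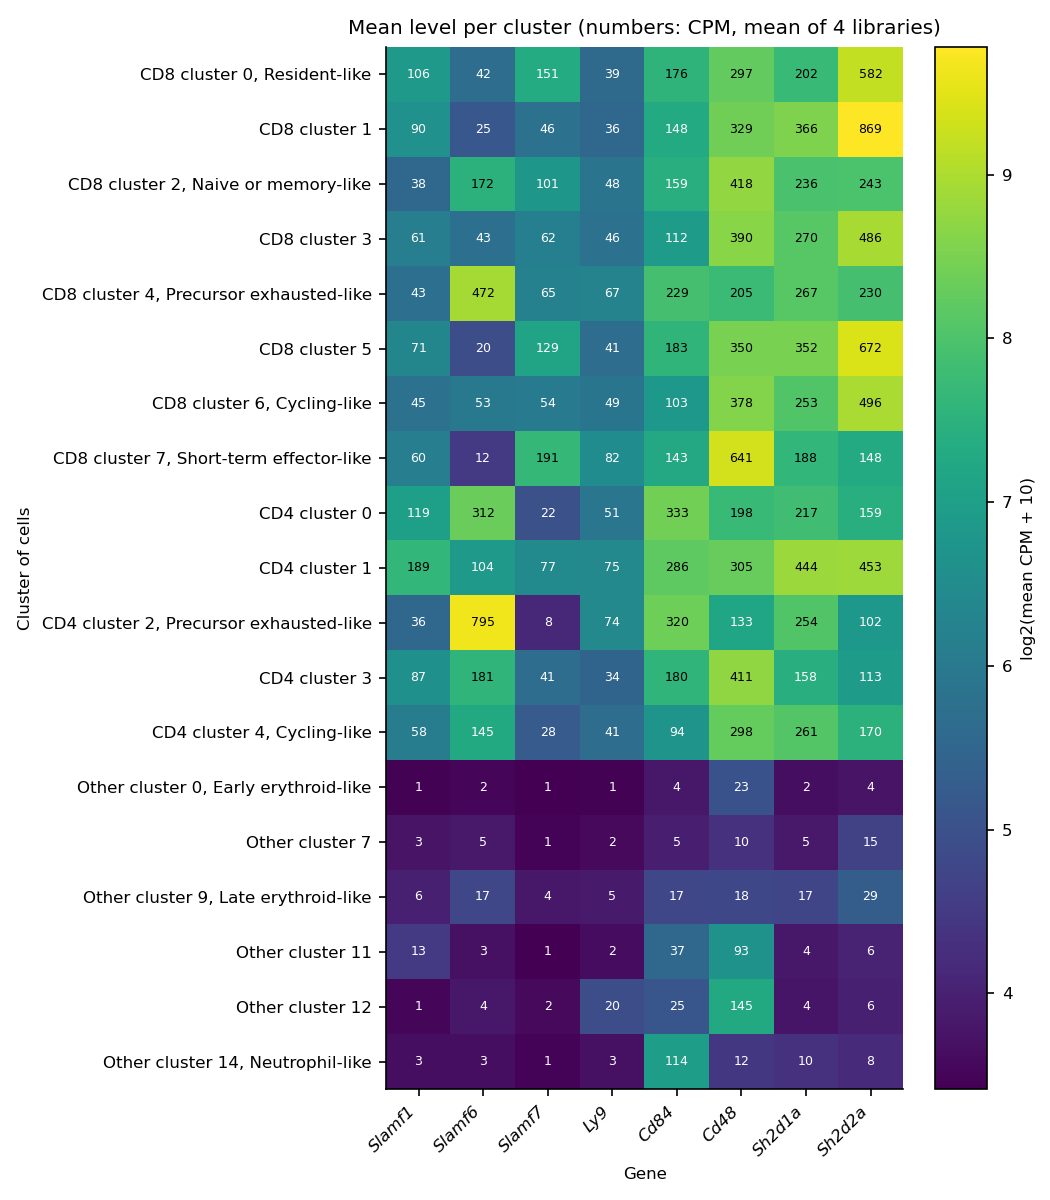
The numbers are mean CPM over 4 libraries for each gene in each cluster of CD8+ Tc, CD4+ Tc and other cells with at least 10 cells in every library, and the color is log2(mean CPM + 10); interferon-stimulated-like, regulatory-like, plasma cell-like, dendritic-like and basophil or mast-like cells had fewer in some library and are not drawn. Slamf6 stands out in the precursor exhausted-like clusters at 472 and 795 CPM, and Sh2d2a in CD8 cluster 1 at 869.

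**Figure D5:**
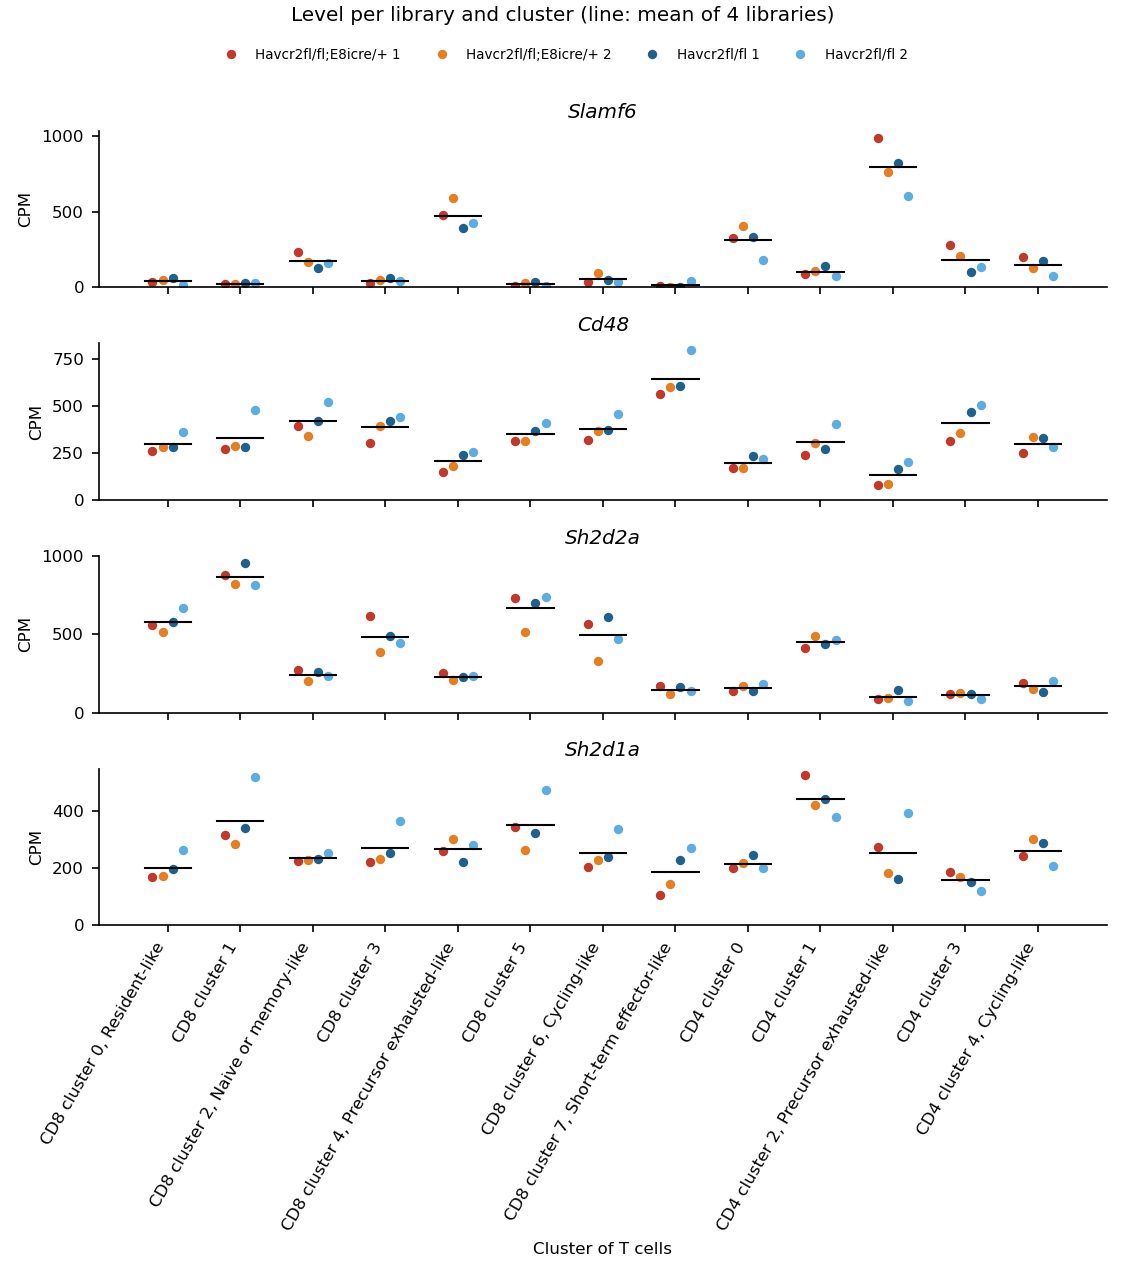
Each panel shows the CPM of Slamf6, Cd48, Sh2d2a or Sh2d1a in the CD8+ and CD4+ Tc clusters, with 1 point per library and the mean as a line. In CD8+ Tc the precursor exhausted-like cluster has the highest Slamf6 mean (472 CPM) and the lowest Cd48 mean (205 CPM).

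Over the 13 Tc clusters with 10 cells in every library, Slamf6 and Cd48 had a Pearson r of -0.77 on log2(CPM + 10), Slamf6 and Slamf7 one of -0.72, and Slamf7 and Cd48 one of 0.72. Sh2d1a and Sh2d2a had an r of 0.62. These are descriptions over clusters that share libraries, and the clusters are not independent. Among 7774 genes with at least 20 CPM in 1 of the clusters, those most like Slamf6 were Cd2ap (r = 0.96), Btla (0.94) and Pecam1 (0.94). For Sh2d2a these were Irf8 (r = 0.97), Ociad2 (0.97) and Setbp1 (0.96), and for Cd48 they were Zyx (r = 0.97), Esyt1 (0.94) and Cript (0.93). For Cd84 they were Lrrc8d (r = 0.97), Ddx50 and Fyb, and for Slamf7 Atp8b4 (0.92), Tm6sf1 and Klrd1. Slamf1 (Snx20, r = 0.84, then BC031181 and Nucb1), Ly9 (Tmem11, 0.90, then Lsg1 and Asb3) and Sh2d1a (Rbbp5, 0.83, then Dgkz and Il10) had less close matches.

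Within lineages, co-detection was read in cells thinned to 2000 UMIs. Tcf7 was detected in 33.3% (22.9% to 40.6% over the libraries) of CD8+ Tc with a Slamf6 UMI and in 5.78% of those without, and in CD4+ Tc in 38.2% and 15.8%. Cd84 was found more often with Slamf6 in 4 of 4 libraries of each lineage, at 33.7% against 25.0% in CD8+ Tc. Sh2d2a was found less often in 4 of 4 libraries of each, at 40.1% against 58.5% in CD8+ Tc. Slamf7 was at 2.84% against 6.80% in CD4+ Tc, also in 4 of 4 libraries, and Pdcd1 at 36.3% against 45.2% in CD8+ Tc.

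Outside the Tc clusters, levels were compared among clusters with at least 10 cells in every library. Slamf6, Sh2d1a and Sh2d2a were highest there in late erythroid-like cells. They stood at 17.2 CPM ± 18.6, 16.9 ± 17.3 and 29.3 ± 27.2 (SD, n = 4). The rest of these clusters had means of 1.56 to 4.53, 2.48 to 9.86 and 3.58 to 15.0 CPM. Cd48 was at 148, 141, 134 and 155 CPM in an unnamed myeloid cluster (Prtn3, Elane, F13a1, Mpo). It was at 95.6, 63.5, 127 and 84.2 in an unnamed cluster led by Pf4 (also Muc13 and Angpt1), against 17.7 ± 13.0 in late erythroid-like cells. In this Pf4-led cluster 3 of 7 stem and progenitor markers were raised (Kit, Meis1 and Angpt1, not Cd34, Mecom, Hlf or Procr), and Pf4 is on the megakaryocyte list. Slamf1, whose protein is a common marker of hematopoietic stem cells, was at 15.0, 15.1, 14.1 and 6.095 CPM in the Pf4-led cluster. That is above the 5.65 ± 6.14 in late erythroid-like cells on the mean, with overlapping ranges. The rest of these clusters had lower Slamf1 means, from 0.993 ± 0.408 CPM (SD, n = 4) in early erythroid-like cells up to 3.499 CPM. Median depth was 19859 UMIs per cell in the Pf4-led cluster, 25679 in early erythroid-like and 4313 in late erythroid-like cells.

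Cd84 was at 117, 146, 91.2 and 101 CPM in neutrophil-like cells and at 81.9 CPM in basophil or mast-like cells (n = 3). Slamf7, a known marker of plasma cells, was at 149 CPM ± 37.6 in plasma cell-like and 269.7 ± 115 in dendritic-like cells (SD, n = 3 for each, since Havcr2fl/fl replicate 1 had 2 and 6 cells of these kinds). Against 4.10 ± 2.72 in late erythroid-like cells, these were the highest mean levels of the gene outside Tc. Ly9 was at 26.4, 18.7, 23.2 and 12.5 CPM in the myeloid cluster. Among the relatives, Slamf8 was at 129.5 CPM ± 67.1 in dendritic-like cells, Slamf9 at 36.5 ± 17.4 in plasma cell-like cells (SD, n = 3 for each), and Sh2d1b1 gave 72 UMIs in the myeloid cluster. Cells outside the Tc clusters also carry T cell RNA, whose part in these levels was not tested. An unnamed cluster of 225 cells, in which 9.33% had a Cd3 UMI, was led by Gzmb, Lat, Gzmk and Trac. Its leading genes were ranked on the mean over libraries. The 9 cells of Havcr2fl/fl replicate 1 weighed as much there as any other library, so these genes may rest on few cells.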

How the data were processed

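Single-cell 3′ RNA libraries of 4 mice were deposited as whole-number UMI counts per gene and barcode; per the labels, the authors made them with Cell Ranger 6.1.2 on mm10, and each library was 1 mouse. The 8 genes and the gene lists were chosen with earlier results of these data known. Named genes were the 8, the pathway genes past the threshold or related to the 8, and the 3 genes most like each in pattern. Cells with at least 500 genes and 1000 UMIs were kept if mitochondrial UMIs did not pass 10%, and doublets called by Scrublet (scanpy 1.11.5) were removed, which left 3430, 2545, 1206 and 4332 cells. Scrublet called only 1 of 3431 cells in the first library, so that removal at the expected rate of 0.8% per 1000 barcodes was run as an alternative. Clusters came from Seurat 5.3.0 with the libraries integrated and the 8 genes left out of the variable genes, and were named by marker genes. CD8+ Tc were cells of Tc clusters in which Cd8a or Cd8b1 but not Cd4 was detected, and CD4+ Tc the reverse. Counts were summed per library and tested with edgeR 4.0.16 (quasi-likelihood, TMM, filterByExpr, Benjamini-Hochberg over all genes tested, threshold 0.05). Some of the fits were run on simulated counts, which had no mouse effects. That check was on the size of the log2 fold changes and sets no error rate for the calls. Gates and lineages were compared with the mouse as a block. CPM is relative to all UMIs of the cells summed, and TMM-scaled CPM uses edgeR's effective library sizes, so that the same gene differs slightly between comparisons. Levels were not compared between genes. Shares of cells with a UMI were read after thinning each cell to 2000 UMIs, which left out 33, 10, 14 and 148 CD8+ Tc and 19, 8, 7 and 54 CD4+ Tc. Gene positions came from GENCODE M21, whose identifiers matched 99.8% of the genes in the files, and promoters from RefSeq. Alternatives were DESeq2 1.42.0, its size factors in edgeR, no filter on low counts, the block, each library left out, a stricter cell filter, doublet handling, Tc by a Cd3 UMI, the donor tag, and thinning. Tc clusters were also remade at a resolution higher by 0.2 and with the 8 genes kept among the variable genes. The labels do not say whether the replicate numbers of the genotypes mark a shared batch. Deviations of same-numbered libraries correlated at -0.13 in CD8+ Tc (10871 genes), which does not settle it, and the numbers were not taken as pairs. Some genes that enter the list counts or lead a cluster are not reported here by name.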

Additional observations from a re-analysis of the deposited data

Results flagged for a closer look

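Of 248 groups of 4 libraries, 10 held a library set apart from the others by Dixon's test at the 95% level. Chance gives about 1 in 20, a share that 10 of 248 did not exceed, and groups that share cells are not independent. In 5 of the 10 the library apart was Havcr2fl/fl replicate 2 in Tc, the shallowest library there, and a part of depth was not tested. Sh2d1a was at 357 TMM-scaled CPM in its Cx3cr1-negative CD8+ Tc, against 230 to 251 in the others, and at 386 in its Pdcd1-positive CD8+ Tc, against 230 to 253. Cd48 was at 478 CPM in its CD8 cluster 1, against 271 to 285, and Sh2d2a at 90.5 CPM in its CD4 cluster 3, against 119 to 123. Sh2d2a was also apart there in all CD4+ Tc, at 208 TMM-scaled CPM against 189 to 189, a small step.

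Sh2d2a was at 472 TMM-scaled CPM in Pdcd1-positive CD8+ Tc of Havcr2fl/fl;E8icre/+ replicate 2, against 602 to 616. Slamf1 was at 79.9 TMM-scaled CPM in Tcf7-positive CD4+ Tc of Havcr2fl/fl replicate 1, against 44.0 to 49.98. Outside Tc, Cd48 was at 30.3 CPM in early erythroid-like cells of Havcr2fl/fl;E8icre/+ replicate 1, against 19.8 to 20.2. In the unnamed cluster led by Pf4, Slamf1 was at 6.095 CPM in Havcr2fl/fl replicate 2, against 14.1 to 15.1, and Slamf7 was at 3.08 CPM, from 8 UMIs, in Havcr2fl/fl;E8icre/+ replicate 1, against 0 UMIs in the others.

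Between the lineages, the Tcf7 contrast differed by 1.43 on the log2 scale for Slamf6 and by 1.53 for Slamf7, by the interaction term.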

How the results depend on the processing

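Of 88 tests of a gene in a comparison, 29 were calls, and 16 of these held under every alternative run, Slamf6 by lineage, by both Tcf7 gates, by their interaction and by Foxp3 among them. No called value changed sign. Among 1198 values under alternatives, 1098 kept their direction and side of the threshold, 44 lost and 9 gained a call, and 47 changed sign. Of the 8 genes, the count called by the Pdcd1 gate was 5 and became 0 without the block, 3 with Tc taken by a Cd3 UMI, 1 after thinning, and 3 to 5 leaving out 1 library; by the Cx3cr1 gate it was 2 and became 0 without the block. By the Foxp3 gate it was 5 and became 3 with DESeq2, 2 after thinning, and 3 to 4 leaving out 1 library. In the interaction of the Tcf7 gate and lineage it was 2 and became 1 without the block, with Tc by a Cd3 UMI and after thinning, and 1 to 2 leaving out 1 library. Leaving out 1 library turned the genotype log2 fold change in CD8+ Tc of Slamf1 (-0.241 to 0.0238), Slamf6 (-0.13 to 0.91), Slamf7 (-0.53 to 0.25) and Sh2d2a (-0.371 to 0.0662). It also turned Slamf7 in Tcf7-positive CD8+ Tc by genotype (-0.193 to 0.0598, and 0.15 after thinning), Sh2d1a by lineage (-0.0447 to 0.183) and Slamf7 by the Tcf7 gate in CD8+ Tc (-0.491 to 0.0748). Without thinning, 75.2% of precursor exhausted-like CD8+ Tc and 85.0% of CD4+ had a Slamf6 UMI. At the higher cluster resolution a precursor exhausted-like CD8 cluster remained, with 431 cells. With the 8 genes kept among the variable genes, no CD8 cluster had this name. Tcf7, Id3 and Slamf6 then led an unnamed cluster of 578 cells, with 5 of 6 naive or memory markers raised. The CD8 cluster led by Itga1, resident-like above, was unnamed under both, with 4 of 9 terminally exhausted markers raised (Pdcd1, Lag3, Tox and Cd160). A CD4 precursor exhausted-like cluster remained under both. Over all genes, calls by genotype ranged over the alternatives from 0 to 98 in CD8+ Tc, 0 to 47 in CD4+ Tc, 0 to 68 in Tcf7-positive CD8+ Tc and 0 to 56 in the interaction, and by gate or lineage from 1026 to 3086 (lineage), 685 to 1846 (Tcf7, CD8), 73 to 1213 (Pdcd1), 182 to 1047 (Cx3cr1), 177 to 691 (Tcf7, CD4), 284 to 676 (Foxp3) and 14 to 258 (Tcf7 gate by lineage). With the replicate number as a block, genotype calls over all genes were 0, 0 and 9 in CD8+, CD4+ and Tcf7-positive CD8+ Tc, with 0 of the 8 genes; crossing the numbers, an alternative chosen after seeing the data, gave 71, 16 and 30, with 0 of the 8. The doublet rate was likewise added after seeing the data. The numbers of cells with a Foxp3 UMI (6 in the smallest library) and of libraries (2 per genotype) limit these counts. The p-values by genotype within 1 set of cells measure the spread between mice of 1 experiment. Those with the mouse as a block, the genotype effect between lineages included, measure how differences within a mouse vary over these mice.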
